A study of Mus musculus with 2 samples.

Results

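The S100 proteins are small calcium-binding proteins, each built from a pair of EF-hands, the helix-loop-helix folds that hold calcium. Most of them work as dimers that open on binding calcium and then grip partner proteins, among them annexins, which bind membranes. Many S100 genes lie in the epidermal differentiation complex, the gene-dense stretch that also holds the cornified envelope genes, and several of their products serve as alarm signals or antimicrobial proteins of inflamed skin.

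The S100 genes described here are S100a3, S100a4, S100a6, S100a7a, S100a8, S100a9, S100a10, S100a11, S100a14 and S100a16, and every probe carrying one of these names in the scanner files was taken, whatever its value. They make up 10 of the 34820 gene names and 12 of the 55676 probes that were tested, since S100a4 and S100a16 have 2 probes each. The data are 2 two-colour arrays of mouse epidermis, and each array set 1 SOX11-induced pup against 1 control littermate. All 4 pups were of strain FVB/N, at postnatal day 4.5, and all had received doxycycline (Dox) for 12 h. The SOX11-induced pups carried K14-rtTA and TRE-Sox11-FLAG and the controls carried K14-rtTA alone, so the rtTA activator and the drug were common to both groups. K14-rtTA is driven by the keratin 14 promoter, which is active in the basal layer and outer root sheath, so the transgene is not switched on in every cell of the sheet.

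The control was labelled with Cy3 and the SOX11-induced pup with Cy5 on both arrays. A log2 ratio above 0 therefore means brighter in SOX11-induced epidermis, and dye and genotype cannot be told apart at a single probe. Brightness is given in normalized scanner units, a level that can be compared between pups for the same probe but not between probes. Calls rest on an adjusted p under 0.05 in a limma fit over all probes, which called 1614 probes (2.9%) as higher in SOX11-induced epidermis and 754 (1.35%) as lower. The log2 ratios of the 2 pairs correlated at r = 0.685 over the 21782 probes above background, as a description across probes that are not independent replicates. All 8 keratinocyte markers were above background in both pups of both pairs, and none of them passed the test. Both probes named Sox11 were below background in all 4 pups, and the sources used here do not say whether they match the transgene, so they check nothing about the labels. In bulk tissue, fewer cells of a type and less RNA per cell cannot be told apart.

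On both arrays all 12 S100 probes stood above background in 1 or both channels, and none was saturated. Only S100a10 passed an adjusted p of 0.05, as a rise, against 2.9% of all probes and 6.61% of those above background called higher. No S100 probe was called lower, against 1.35% of all probes and 3.11% of those above background. With a mean log2 ratio past 1.5 asked for as well, 0 of 12 were called, against 0.451% of all probes, and with a linear 1.5-fold change asked for, 1 of 12 was called, against 4.25%. At an unadjusted p under 0.05 the limma fit held 5 of the 12 S100 probes, against 21% of all probes and 31.1% of those above background. The median log2 ratio of the 12 probes was 0.03, at 0.19 in pair 1 and -0.15 in pair 2, beside a median of 0.04 over all probes above background. Both pairs gave the same sign at 7 of the 12 probes, 4 of them higher and 3 lower, whereas the same holds for 74.1% of all probes above background.

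**Figure D1:**
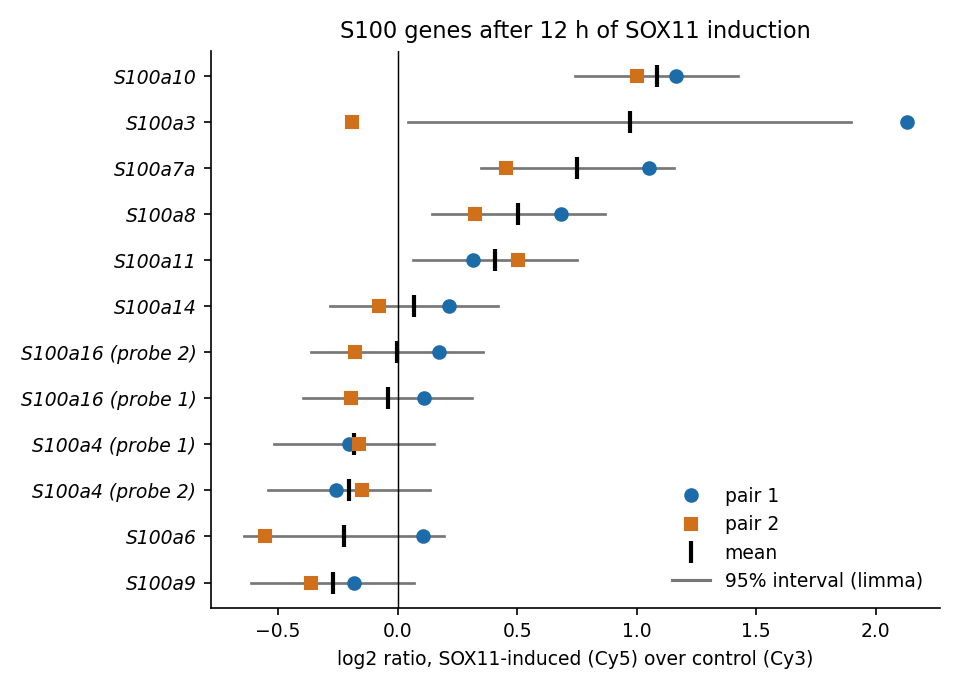
Log2 ratio of SOX11-induced over control epidermis (horizontal axis) for each of the 12 S100 probes, with circles for pair 1, squares for pair 2, black ticks for the mean and grey lines for the 95% interval of the limma fit. S100a10 lies near 1 in both pairs, while S100a3 lies at 2.13 in pair 1 and at -0.19 in pair 2.

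S100a10 rose in SOX11-induced epidermis. This member, also called p11, has lost the ability to bind calcium and stays in the open form, in which it joins annexin A2 into a complex at the plasma membrane. Its brightness was 2103 in the control and 4718 in the SOX11-induced pup of pair 1, and 1615 and 3237 in pair 2. Both SOX11-induced pups were thus brighter than both controls. The log2 ratios were 1.17 and 1.00, with a mean of 1.08 ± 0.115 (SD, n = 2 pairs), a 95% interval of 0.74 to 1.43 and a limma adjusted p of 0.00509. That is a 2.12-fold difference, and the mean stood at the 97.4th percentile of all probes above background. The probe lies at chr3:93368437-93368496 on the build of the files, mm9. The size of the difference was kept with the processed signals of the scanner software (mean log2 ratio 1.09), but the call was lost (adjusted p = 0.242). The call was also lost with a variance prior fitted with a trend and robust estimation together (adjusted p = 0.0649). That setting uses the same log2 ratios and bears on the test alone.

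The partners of S100a10 were set beside it. Anxa2, which encodes annexin A2 and was the brightest of the 10 genes listed as S100 partners and receptors, had log2 ratios of -0.15 and 0.09 and a mean of -0.03 ± 0.171 (adjusted p = 0.938). S100a10 minus Anxa2 was 1.32 in pair 1 and 0.91 in pair 2, a difference that was not tested. Ahnak, which encodes a very large scaffold protein bound by the S100A10 and annexin A2 complex, has 4 probes. The brightest gave a mean of -0.30 (adjusted p = 0.285), and 2 others were lower at -0.78 (adjusted p = 0.0319) and -0.73 (adjusted p = 0.0373). At their brightest probes, 0 of the 10 partner and receptor genes passed the test, with a median log2 ratio of 0.12. Ager and Tlr4, which encode receptors for extracellular S100 proteins, were not above background.

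S100a11 is the neighbour of S100a10 and encodes a protein that joins annexin A1 in the cornified envelope. Its brightness was 5117 in the control and 6362 in the SOX11-induced pup of pair 1, and 3973 and 5633 in pair 2. The SOX11-induced pup was the brighter one in both pairs, while the control of pair 1 was nearly as bright as the SOX11-induced pup of pair 2. The mean log2 ratio was 0.41 ± 0.134, with a 95% interval of 0.07 to 0.75 and an adjusted p of 0.168, so it was not called. Anxa1, named here because it binds this protein, gave a mean of 0.41 (adjusted p = 0.167) at its brightest probe. Its other probe gave 0.26 (adjusted p = 0.391). The S100a11 and S100a10 probes lie 38.48 kb apart as the ends of one stretch of chromosome 3, at chr3:93330022-93368496 of mm9. They are the only 2 probes tested on it, so its median log2 ratio of 0.75 only restates their values.

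The remaining members lie in the main S100 cluster. From the S100a1 probe to the S100a9 probe, at chr3:90314959-90496632 of mm9, it spans 181.7 kb and holds 15 S100 probes. Of these, 14 were above background and 0 passed the test, against 2.9% of all probes called higher and 1.35% called lower. The median log2 ratio of the 15 probes was -0.00, with 3 higher and 4 lower in both pairs. A further 13 probes of other names lie between them, 3 of which were above background, and 0 passed the test. S100a3 had the highest log2 ratio of the cluster in pair 1, and S100a4, which lies next to it, was slightly below 0 in both pairs.

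**Figure D2:**
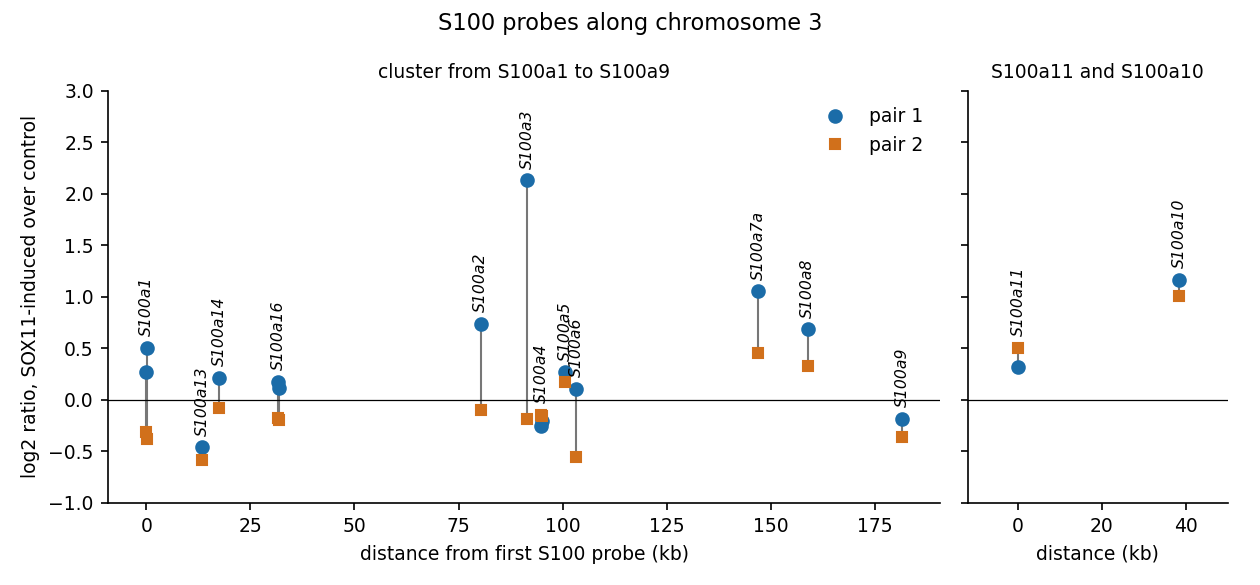
Log2 ratio of SOX11-induced over control epidermis (vertical axis) of every chromosome 3 probe whose array name begins with S100, against its distance in kb from the first such probe of its stretch. Circles for pair 1 and squares for pair 2 are joined by a line. S100a7l2, which has another name on the array, is not shown. S100a5 was not above background, and S100a10, at the right, is the only probe shown that passed the test.

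S100a7a, S100a8 and S100a9 encode secreted alarm proteins. S100a7a is the mouse gene nearest to human psoriasin, which keratinocytes make in inflamed skin. Its brightness was 35.9 in the control and 74.6 in the SOX11-induced pup of pair 1, and 62.6 and 85.7 in pair 2. Both SOX11-induced pups were brighter than both controls, but the probe was dim, and the control channel was above background on 1 of the 2 arrays. The log2 ratios were 1.05 and 0.45, with a mean of 0.75 ± 0.425 and an adjusted p of 0.0510, just outside the threshold. The mean depended on the processing, at 0.45 with a normexp offset of 50 and 1.90 with the processed signals.

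S100a8 and S100a9 encode the 2 chains of calprotectin, which sequesters zinc and manganese from microbes and is abundant in neutrophils and in stressed keratinocytes. S100a8 had a brightness of 312 in the control and 501 in the SOX11-induced pup of pair 1, and 502 and 628 in pair 2. The SOX11-induced pup was the brighter one in each pair, although the control of pair 2 matched the SOX11-induced pup of pair 1. The mean log2 ratio was 0.50 ± 0.255 (0.69 and 0.32), with an adjusted p of 0.116. S100a9 had a brightness of 1846 and 1625 in pair 1 and of 1708 and 1331 in pair 2, control first, so that both SOX11-induced pups were dimmer than both controls. Its mean log2 ratio was -0.27 ± 0.125 (-0.18 and -0.36), with a 95% interval of -0.61 to 0.07 and an adjusted p of 0.342. S100a8 minus S100a9 was 0.87 in pair 1 and 0.68 in pair 2 on the log2 scale, which was not tested.

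Neither chain of calprotectin was called, and the markers of the cells in which it is most abundant were largely below background. Of 14 neutrophil and myeloid genes, Csf3r, Elane, Itgam and Ptprc were above background, and Camp, Cd177, Cxcr2, Ltf, Ly6g, Lyz2, Mmp8, Mpo, Ngp and Retnlg were not. None of the 14 passed the test, and their median log2 ratio was 0.03. Of 6 T cell markers, 5 were above background and 1 was called lower, against 1.35% of all probes and 3.11% of those above background. That 1 was Thy1, which other skin cells also express, at -1.30 (adjusted p = 0.00200). The median log2 ratio of the 6 was -0.22, and no T cell receptor or CD3 gene of the list was called. Among 14 measured genes of stressed or wounded epidermis, 2 were called higher, against 2.9% of all probes and 6.61% of those above background. They were Krt16 with a mean of 0.76 (adjusted p = 0.0283) and Krt6a with a mean of 1.38 (adjusted p = 0.0455), both keratins of wound-edge keratinocytes. Krt6a stood at 2.22 in pair 1 and 0.53 in pair 2. Its brightness was 961 and 4487 in pair 1 and 2657 and 3840 in pair 2, control first. The list had a median log2 ratio of 0.31, and 6 of the 14 genes were not above background.

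S100a3 is a protein of the hair cuticle that is modified there by the enzyme PADI3. Its brightness was 5630 in the control and 24645 in the SOX11-induced pup of pair 1, and 44163 and 38750 in pair 2. The control of pair 1 stood apart from the other 3 pups, and the control of pair 2 was 7.84 times as bright as it. The log2 ratios were 2.13 and -0.19, with a mean of 0.97 ± 1.64 and an adjusted p of 0.219. The gap of 2.32 between the pairs was at the 99.6th percentile of such gaps among probes above background. The 95% interval of 0.04 to 1.90 leans on a spread shared by all probes and does not hold the value of either pair.

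Markers of the hair shaft moved with S100a3, and their part in its values was not tested. All 16 of them were above background in both channels of both arrays, and all 16 had a log2 ratio above 0 in pair 1, from 1.01 to 2.46, while 15 of the 16 were below 0 in pair 2, from -0.55 to 0.18 over the list. Their summed brightness was 41113 in the control and 192386 in the SOX11-induced pup of pair 1, and 351049 and 282055 in pair 2. The control of pair 2 was thus 8.54 times the control of pair 1, and 0 of the 16 passed the test. Krt33a, a hair cortex keratin and the brightest of the list, had log2 ratios of 2.44 and -0.10, and Padi3, named for its link to this protein, had 1.81 and -0.28.

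**Figure D3:**
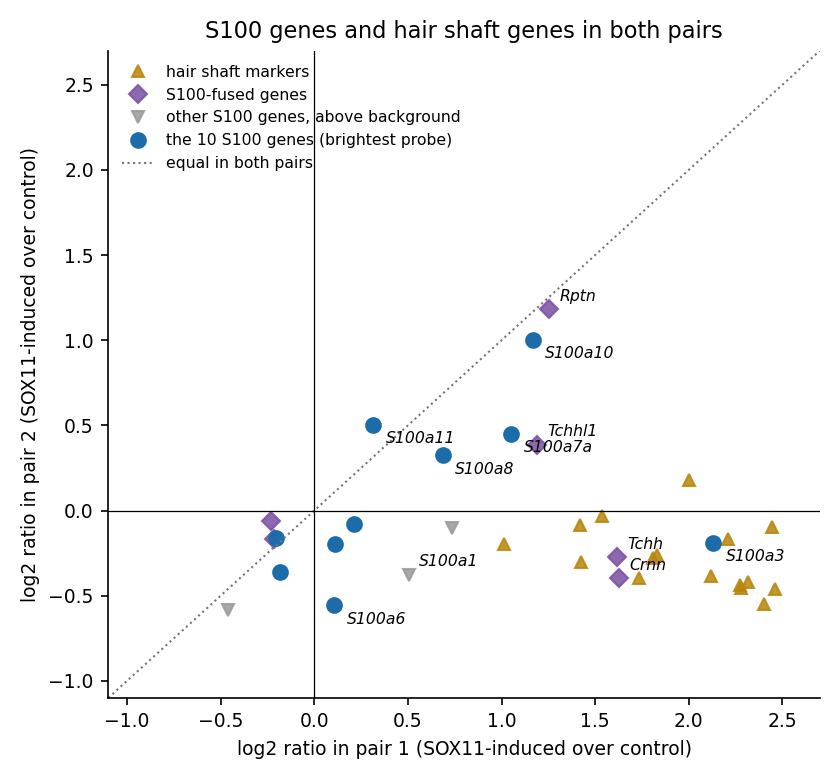
Log2 ratio of SOX11-induced over control epidermis in pair 1 (horizontal axis) against pair 2 (vertical axis), with circles for the 10 S100 genes at their brightest probe, triangles for hair shaft markers, diamonds for S100-fused genes and inverted triangles for the other S100 genes above background; the dotted line marks equal ratios. S100a3 lies among the hair shaft markers, and S100a10 lies beside Rptn near the dotted line.

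S100a4 and S100a6 encode proteins tied to cell movement and growth. S100a4 is abundant in fibroblasts and in dendritic cells, and S100a6, or calcyclin, in many dividing and epithelial cells. Their probes and that of S100a8 share a stretch of coding sequence and are shown here to make plain what the arrays read and that the probes differ from each other. The letters are those of the array design in the scanner files, on the strand of the transcript, and capitals mark the bases TTC, any base, then AGGAGT. In these genes it codes for the end of the calcium-holding loop of an EF-hand, and 0.0377% of all probe sequences on the array hold it.
S100a4 (chr3:90409734-90409793, mm9): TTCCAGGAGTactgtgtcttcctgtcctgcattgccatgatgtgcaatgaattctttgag
S100a6 (chr3:90418160-90418219, mm9): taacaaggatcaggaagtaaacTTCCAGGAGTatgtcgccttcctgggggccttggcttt
S100a8 (chr3:90473778-90473837, mm9): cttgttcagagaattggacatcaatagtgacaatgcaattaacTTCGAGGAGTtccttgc
The longest run shared by any 2 of the 12 member probes was 11 of 60 bases, between S100a4 and S100a6.

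Both S100a4 probes gave small differences of the same sign. The brighter probe read 3130 in the control and 2721 in the SOX11-induced pup of pair 1, and 1477 and 1320 in pair 2. The other probe, shown above, read 2489 and 2081 in pair 1 and 1118 and 1010 in pair 2. Both pups of pair 2 were dimmer than both pups of pair 1 at each probe. The mean log2 ratios were -0.18 ± 0.0285 (adjusted p = 0.527) and -0.20 ± 0.0790 (adjusted p = 0.478), and neither was called. Most markers of Langerhans cells, the dendritic cells of the epidermis, were also dimmer in pair 2, and their part in the S100a4 values was not tested. The summed brightness of 7 such markers was 36875 and 31027 in pair 1 and 12689 and 10719 in pair 2, control first, and 0 of the 7 passed the test. Their defining gene Cd207, which encodes langerin, read 1372 and 1092 in pair 1 and 249 and 225 in pair 2. The list was not uniform, since Epcam, which keratinocytes can also express, read 671 and 1131 in pair 1 and 841 and 1047 in pair 2. The 9 dermal fibroblast markers had a median log2 ratio of 0.23, with genes not above background counted. Among them Dcn, which encodes decorin, was called lower at -0.79 (adjusted p = 0.0276). The collagens had opposite signs in the pairs, with Col1a1 at -0.03 and 0.77, Col1a2 at -0.17 and 1.14 and Col3a1 at -0.17 and 0.92. Their means were 0.37, 0.49 and 0.37, that of Vim was 0.10, and none of these genes was called. Lum, Pdgfra, Pdgfrb and Twist2 were not above background.

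S100a6 had a brightness of 20305 in the control and 21867 in the SOX11-induced pup of pair 1, and 41101 and 27948 in pair 2. Its log2 ratios of 0.11 and -0.56 have opposite signs, with a mean of -0.22 ± 0.469 and an adjusted p of 0.529. As with S100a3, the 2 controls lay further apart than either pair did, the control of pair 2 being 2.02 times as bright as that of pair 1. Cacybp, which encodes a protein that S100A6 binds, was at 0.15 and 0.08 (mean log2 ratio 0.12, adjusted p = 0.703).

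**Figure D4:**
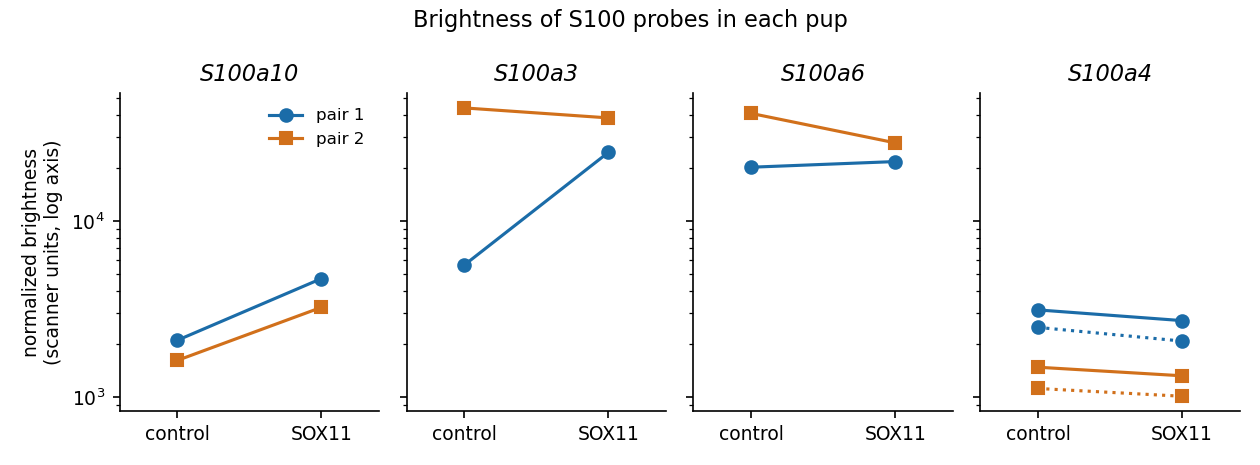
Normalized brightness in scanner units (vertical log axis) of S100a10, S100a3, S100a6 and S100a4 probes in the control and the SOX11-induced pup, with circles for pair 1, squares for pair 2 and lines joining littermates; the dotted lines are the second S100a4 probe. S100a10 is higher in the SOX11-induced pup of both pairs, the pair 1 control of S100a3 lies at 5630 below the other 3 pups, and S100a4 is lower in pair 2 than in pair 1 in both groups.

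S100a14 and S100a16 encode epithelial members of the family. S100a14 had a brightness of 45036 and 52246 in pair 1 and of 48561 and 46024 in pair 2, control first. The brighter S100a16 probe read 34790 and 37613 in pair 1 and 38672 and 33744 in pair 2, and the other read 9979 and 11252, and 12672 and 11188. All 3 probes were a little higher in SOX11-induced epidermis in pair 1 and a little lower in pair 2. The mean log2 ratios were 0.07 ± 0.206 for S100a14 (95% interval -0.28 to 0.42, adjusted p = 0.843) and -0.04 ± 0.219 (adjusted p = 0.909) and -0.00 ± 0.250 (adjusted p = 0.993) for the S100a16 probes. The interval of S100a14 leaves room for a change of up to 0.42 on the log2 scale, so that a small change was not detectable with 2 pairs.

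The relatives of these genes were read from lists. Of 8 other S100 genes measured, S100a1, S100a2 and S100a13 were above background, and 0 passed the test. S100a13, which encodes a protein that helps release growth factors from cells, was at -0.46 and -0.59, with a mean of -0.52 ± 0.0898 (adjusted p = 0.0894). S100a1 had opposite signs in the pairs at 0.50 and -0.38 at its brighter probe, as did S100a2 at 0.74 and -0.10. The S100-fused genes encode long proteins of the cornified layer and hair follicle that begin with an S100 domain. Of the 6 measured, 1 was called higher, against 2.9% of all probes and 6.61% of those above background. Rptn, which encodes repetin, rose with log2 ratios of 1.25 and 1.18 and a mean of 1.22 ± 0.0489 (adjusted p = 0.00258). Tchh at 1.61 and -0.27 and Crnn at 1.63 and -0.40 had opposite signs in the pairs, as S100a3 did. Tchhl1 stood at 1.19 and 0.39 (adjusted p = 0.0625), and Flg2 and Hrnr had means of -0.19 and -0.14.

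For 8 of the members, which do not include S100a10 and S100a14, 12 promoters were searched in RefSeq sequence (GRCm38.p6), from 250 bases before to 50 bases after the start, on both strands. ACAAAG, a core motif of SOX factors, occurred in 2 of these 12, 1 of S100a3 and 1 of S100a8, and in 18.7% of all 32851 promoters. AACAAT, another SOX core, occurred in 2 of the 12, for S100a4 and S100a16, and in 10.7% of all. TGAGTCA, the site of AP-1 factors, whose reverse complement is TGACTCA, occurred 2 times in 1 of the 12, that of S100a11, and in 5.2% of all. The windows around the matches in S100a11, the member with 2 of them, are given with the motif in capitals.
S100a11 (chr3:93520350-93520376, GRCm38.p6): agagacctgtTGAGTCAcagggactac
S100a11 (chr3:93520448-93520474, GRCm38.p6): gggcacagccTGAGTCAggctgagggg
These are matches of letters and not measured binding.

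**Figure D5:**
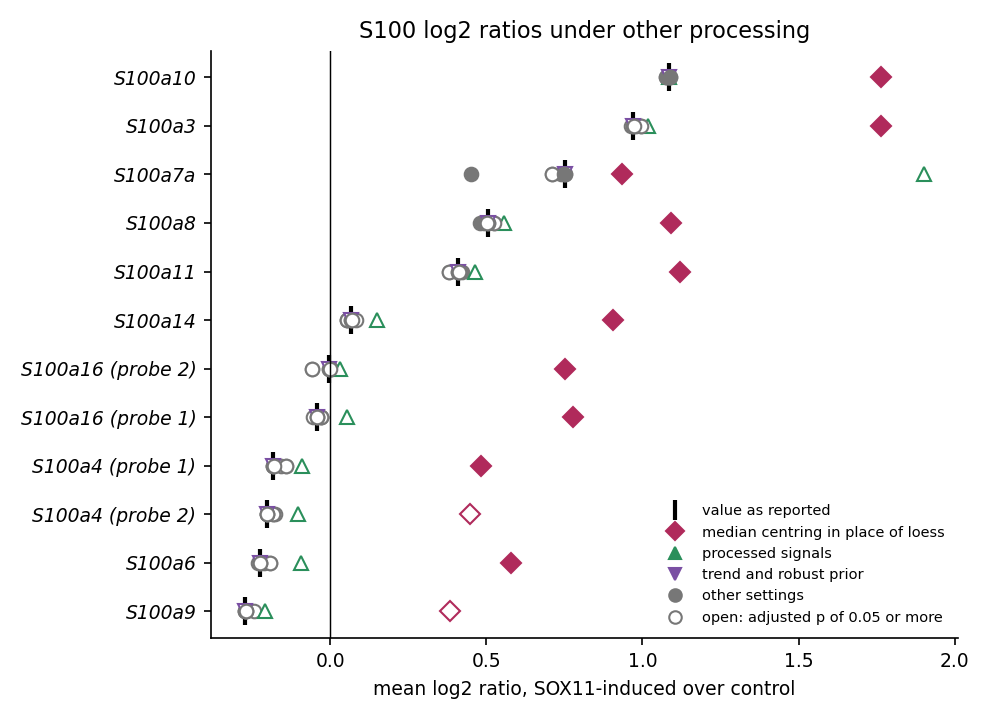
Mean log2 ratio of SOX11-induced over control epidermis (horizontal axis) of each S100 probe as reported (tick) and under 10 other ways of processing the arrays (symbols, filled where the limma adjusted p was under 0.05). S100a10 lies between 1.07 and 1.76 and is filled under 8 of the 10, and median centring (red diamonds) moves every probe to the right.

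The calls among the S100 probes depended on how each array was centred. Median centring in place of loess called 10 of the 12 higher, while it also moved the median of all probes above background from 0.04 to 0.53 and called 32.3% of all probes. Relative to that shift, S100a9 at 0.38 and S100a4 at 0.48 and 0.45 lay below the median of 0.53. All other S100 probes lay above it, from S100a6 at 0.58 up to S100a3 and S100a10, both at 1.76. S100a10 was higher under all 10 alternatives, at 1.07 to 1.76, and passed the test under 8 of them. The other variance prior, the restriction to probes above background and the keeping of flagged spots left the reported log2 ratios of these probes unchanged. Those bear on the test alone and could not change a direction. The authors' series table gave the same values as median spot brightness, so these are not separate checks. S100a7a passed under 4, S100a8 under 3 and S100a11 under 2.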

How the data were processed

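Two-colour arrays of 2 littermate pairs were analysed. Per the file headers, Agilent Feature Extraction 10.7.3.1 wrote the scanner files, with probe positions on mm9. The deposited intensity values are the spot and background brightness of each channel, and the processed signals are intensity values that the software had background-subtracted and dye-normalized. The deposited log10 ratio column was not used. The authors' own log2 ratios, in the series table, were rebuilt from median spot brightness with r = 1 on both arrays.

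Mean brightness was corrected by normexp (offset 16), loess was run within arrays, and control and outlier-flagged spots (194 and 186) were dropped. Spots of a probe were averaged, and an intercept was fitted with limma 3.58.1 in R 4.3.3 (eBayes, Benjamini-Hochberg over 55676 probes). The prior had 8.14 degrees of freedom and an SD of 0.223. Calls rest on this prior, since exact sign flips of 2 values reach no p below 0.5. On simulated data 51% of changes of 1 (log2) and 99% of changes of 2 were recovered, with 8 false calls. The simulated errors were independent and drawn from this prior, and 100 probes were changed at each size, far fewer than were called on the arrays. These rates need not hold for the real data. Brightness per pup was scaled between arrays by Aquantile. A probe was above background in a channel where at least 0.5 of its spots were marked so.

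Members and lists were chosen with earlier results of these data known. All member probes are named, with list genes past the adjusted p of 0.05, the brightest of a list otherwise, genes named for a stated link to a member, and Epcam, Vim and the collagens, which were chosen after their values were seen. Both arrays were on 1 slide with 1 scan time, so no batch could be split. The labels give 1 dye orientation, whereas the methods mention a colour swap. The number of arrays limits the precision.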

Additional observations from a re-analysis of the deposited data

How the results depend on the processing

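Each array holds a littermate pair, so every fit to its log2 ratios is already paired. With 1 S100 probe past the adjusted p of 0.05 in the reported fit, an offset of 50 gave 4, no background correction 3, median centring 10, the processed signals 0, a prior with trend and robust estimation 0, and control spots at weight 0 in loess, an alternative chosen after seeing the data, gave 2. With a linear 1.5-fold change asked for, the reported 1 became 2 without background correction, 8 with median centring, 0 with the processed signals, 0 with the trend and robust prior and 2 with control spots at weight 0. With a log2 ratio past 1.5 asked for, the reported 0 became 2 with median centring. Under the alternatives, calls over all probes were counted at the adjusted p alone. The S100 counts past either fold threshold thus have no share of all probes beside them. At an unadjusted p under 0.05 the limma count of S100 probes was 5 as reported (11699 of all probes), 1 with the processed signals (8757), where no probe of the array was called, 4 with the trend and robust prior (11249), 4 among probes above background (7079), 6 without background correction (12537) and 12 with median centring (24700). The median log2 ratio moved from 0.03 to 0.84 with median centring, and it ran from -0.15 to 0.19 when either pair was left out. With both pairs kept, the values that changed sign were those of the S100a16 probes (0.0030 with an offset of 50, 0.0034 without background correction, 0.032 and 0.053 with processed signals, 0.75 and 0.78 with median centring) and, with median centring, S100a6 (0.58), S100a4 (0.48 and 0.45) and S100a9 (0.38). Of 120 values of single probes over 10 alternatives with a test, 97 kept their direction and side of the threshold. A further 15 passed it newly, 4 of them with a changed sign, and 2, both of S100a10, no longer passed. Direction could not change with the trend and robust prior, among probes above background or with flagged spots kept, where the log2 ratios are the reported ones. The series table repeated the log2 ratios of median spot brightness, so those values are counted again. Leaving out a pair leaves no test, and 5 of 24 such values changed sign: S100a3 (-0.19) and S100a14 (-0.08) without pair 1, and S100a6 (0.11) and S100a16 (0.17 and 0.11) without pair 2. At the adjusted p alone, the number of probes called on the whole array was 2368 as reported, 4367 with an offset of 50 and 4755 without background correction. It was 17975 with median centring, 0 with processed signals, 245 with the trend and robust prior and 2446 with control spots at weight 0 in loess. The causes were not tested.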
